A study of Mus musculus with 7 samples.

Results

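The genes described here encode the machinery of oxidative phosphorylation, and they were followed across the cell types of the mouse thyroid and into thyroid follicular cell organoids (TFCOs). Members were taken by gene name, under rules chosen with earlier results of these data known. Rows beginning mt-Nd, mt-Co, mt-Cytb or mt-Atp formed the mitochondrial set. Rows beginning Ndufa, Ndufb, Ndufc, Ndufs, Ndufv, Uqcr, Cox4i, Cox5, Cox6, Cox7, Cox8 or Atp5, together with Sdha to Sdhd, formed the nuclear set, and 12 rows marked as pseudogenes were left out. This gave 106 of 30879 genes, 12 mitochondrial and 94 nuclear. The nuclear set held 39 subunits of complex I, 8 of its assembly factors (Ndufaf), 4 genes of complex II, 8 of complex III, 17 of complex IV and 18 of the ATP synthase. Rows were grouped by name. Ndufa4, now assigned to complex IV, and its paralogue Ndufa4l2 are therefore counted with complex I in every count and median by complex. The genes mt-Nd4l and Cox4i1 were not analysed here.

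Oxidative phosphorylation takes electrons from NADH and succinate through complexes I to IV of the inner mitochondrial membrane to oxygen, pumps protons on the way, and lets the ATP synthase use their return to make ATP. Complexes I, III, IV and the ATP synthase are built from both genomes, with a few core subunits made inside the mitochondrion and all others imported from the cytosol, while complex II is wholly nuclear. Mitochondrial messages are cut from long transcripts of the whole circular genome, and most of them are separated by the tRNAs that lie between them.

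Single cells were profiled by SORT-seq, in which living cells are sorted into 384-well plates and each captured molecule carries a unique molecular identifier (UMI). There were 2 samples of primary thyroid tissue, 3 of late passage TFCOs and 2 of early passage TFCOs, all from wild-type C57BL/6 mice with no treatment. TFCOs are grown in gel from thyroid follicular cells (TFCs), which make the hormone, and both passage groups grew in basement membrane extract with R-spondin 3, A83-01, FSK (forskolin), EGF and FGF10, which the tissue never saw. The age, the exact passage and the animal behind each of these samples are not given in the sources used here, so p-values measure the spread between these samples, and tissue and organoid cells were never on the same plate, so plate and origin cannot be told apart.

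Of 2590 cells, 2035 held at least 1000 UMIs and were kept, 242 to 360 a TFCO sample and 305 and 273 a tissue sample. Median depth was 3608 and 3368 UMIs in kept tissue cells and 5011 to 12380.5 in TFCO samples. All plates drew on the same 384 well barcodes, and 305 of them occurred in all 7 samples. A level below is the mean over cells of UMIs per 10000 UMIs of the cell. UMIs are counted at the 3′ end of a message, so a level does not grow with gene length, but it does depend on how well that end can be placed in the genome.

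Tissue cells were grouped by clustering without the members, without any other mitochondrial row and without genes that followed the well barcode. This left for comparison 22 stromal-like, 57 immune-like, 105 mural-like, 180 endothelial-like and 90 TFC-like cells, and a cluster of 91 cells led by haemoglobin genes that was kept out of the tests. A further 33 cells of the follicular cluster, whose C cell, parathyroid or erythroid marker score exceeded their TFC score, were set aside. The 16 TFC markers summed to 1597 and 1159 UMIs per 10000 in TFC-like cells of the 2 tissue samples and to 16.7 to 32.6 in the other 4 classes. The same markers summed to 181, 124.9 and 207.8 in late TFCOs and to 116.4 and 168.9 in early ones, above the other tissue classes and well below the TFC-like cells. Most of each sum was a single marker, the thyroglobulin message Tg. Tg alone took 15.46% and 11.12% of UMIs in the TFC-like samples. Its share was 0.6849% to 1.539% across TFCO samples and 0.1549% to 0.2988% in the other 4 classes. The order of these sums is thus mainly that of Tg, and the remaining markers were not summed apart.

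The mitochondrial set was read through very few of its rows. The row mt-Cytb, the haem-bearing core of complex III, held 174232 UMIs over all cells, and mt-Nd4 of complex I held 164872. Next came mt-Nd1 with 64014, mt-Nd2 with 55094, mt-Nd5 with 37743 and mt-Co1, the catalytic core of complex IV, with 21528. These 6 rows carried 99.44% of the UMIs of the set in the kept cells. The small ATP synthase subunit mt-Atp8 held 2487 UMIs and mt-Nd6, the one mitochondrial member that reads from the other strand, held 287.

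The remaining 4 rows were almost empty. The row mt-Atp6 held 53 UMIs, mt-Co2 held 30, mt-Nd3 held 16 and mt-Co3 held 7. In the mouse reference a stretch of chromosome 1 carries a copy of this part of the mitochondrial genome, annotated on the minus strand as a run of 7 pseudogenes. The copy of mt-Co2, Gm28661, was identical to it at 681 of 681 aligned bases, that of mt-Atp6, Gm10925, at 678 of 678, and that of mt-Co3, Gm28437, at 783 of 783. Over 98% of the 50-base stretches in the last 300 bases of these 4 genes also occurred in another annotated gene, against 0% for mt-Cytb, mt-Nd4, mt-Nd1 and mt-Atp8. For mt-Nd2 it was 31.9% and for mt-Nd5 1.99%. The rows mt-Co1 and mt-Nd6 did not follow this order. In mt-Co1 100% of the stretches in the last 300 bases were shared, yet it held 21528 UMIs. In mt-Nd6 0% were shared, yet it held 287. The rows of the chromosome 1 copy held 9 to 223 UMIs each as well, so neither side of the shared stretch was counted like mt-Cytb. Whether reads that fit both places were dropped before deposit was not tested.

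The last 120 aligned bases of mt-Co3 and of its copy are shown with those of mt-Cytb, because they set the least counted mitochondrial member, whose end has an identical copy in the nuclear genome, beside the most counted one, whose end has none among the annotated genes. They come from GENCODE transcripts on GRCm38 and read 5′ to 3′ along the gene. They cover bases 664 to 783 of mt-Co3 (chrM:8607-9390, plus strand), the same bases of Gm28437 (chr1:24613189-24613971, minus strand) and bases 1025 to 1144 of mt-Cytb (chrM:14145-15288, plus strand), all protein-coding or pseudogene exon.
mt-Co3: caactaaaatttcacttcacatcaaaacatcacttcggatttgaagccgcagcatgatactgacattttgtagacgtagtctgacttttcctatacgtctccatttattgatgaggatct
Gm28437: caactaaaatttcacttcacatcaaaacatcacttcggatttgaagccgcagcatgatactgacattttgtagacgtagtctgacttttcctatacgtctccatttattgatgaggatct
mt-Cytb: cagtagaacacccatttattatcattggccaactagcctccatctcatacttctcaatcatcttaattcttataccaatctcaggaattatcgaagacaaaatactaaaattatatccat

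**Figure D1:**
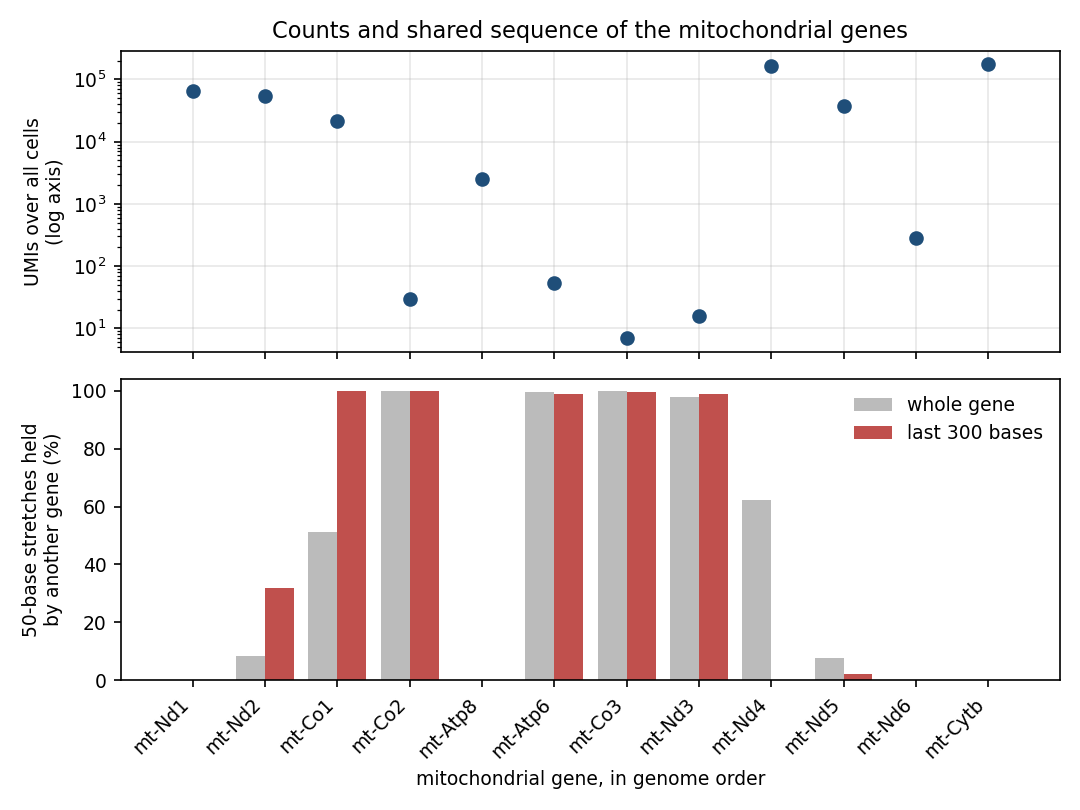
UMIs of each mitochondrial gene over all cells (log axis) beside the percent of its 50-base stretches that also occur in another annotated gene, for the whole gene (grey) and its last 300 bases (red). The rows mt-Co3, mt-Nd3, mt-Co2 and mt-Atp6, with 7 to 53 UMIs, are almost fully shared, while mt-Cytb is not shared at all. Outside this order, mt-Co1 is shared at its end but well counted, and mt-Nd6 is not shared but has 287 UMIs.

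Nuclear members were counted at 3 to 8131 UMIs each. Most had ends of their own, but some did not. All of the stretches in the last 300 bases of Uqcrc2, a core subunit of complex III, were shared with the neighbouring Pdzd9, and 82.9% of those of Ndufb6 were shared with Smim27. The ATP synthase subunit gene Atp5l, with 70.1% shared, held 335 UMIs, and Ndufs5, with 54.6% shared, held 218. Sharing did not always go with low counts, as Cox7c, with 73.3% shared, held 3946 UMIs and Cox5a, with 69.3% shared, held 2388. Values for these genes are uncertain to that extent.

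Some promoters of the nuclear members held the letters of a known regulator, though most did not. Promoters (RefSeq, GRCm38.p6, 250 bases before to 50 after the start) were found for 75 of the 94 nuclear members. The letters GCGCA, then any base, then GCGC, the core bound by nuclear respiratory factor NRF1, occurred on either strand in 18 of these 75 (24%), against 4.6% of all 32851 promoters. The letters AANATGGCG, as bound by YY1, occurred in 9 (12%) against 2.38%, and CCGGAAGTG, as bound by ETS factors, in 2 (2.67%) against 2.03%. The promoters of Sdha, the flavoprotein of complex II, and Cox6a1, the widely used form of a complex IV subunit, are printed because they hold 3 and 2 matches to the first motif, which stand in capitals; Sdha lies at chr13:74350191-74350490 and Cox6a1 at chr5:115348909-115349208, both on the minus strand.
Sdha: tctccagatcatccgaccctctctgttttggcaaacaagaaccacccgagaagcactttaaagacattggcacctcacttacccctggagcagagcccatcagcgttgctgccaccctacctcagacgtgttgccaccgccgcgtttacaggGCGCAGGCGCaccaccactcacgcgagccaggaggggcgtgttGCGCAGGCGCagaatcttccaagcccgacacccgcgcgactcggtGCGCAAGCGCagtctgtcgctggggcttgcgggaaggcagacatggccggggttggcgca
Cox6a1: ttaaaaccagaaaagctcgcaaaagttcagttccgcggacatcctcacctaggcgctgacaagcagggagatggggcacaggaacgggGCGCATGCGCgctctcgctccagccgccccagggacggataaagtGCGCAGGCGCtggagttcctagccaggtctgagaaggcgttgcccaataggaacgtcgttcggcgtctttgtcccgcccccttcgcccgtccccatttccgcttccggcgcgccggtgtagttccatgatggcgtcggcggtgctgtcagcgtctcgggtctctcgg

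The first comparison asked how the sets differ between the cell types of the gland. The mitochondrial set took far more of the transcriptome in TFC-like cells than in any other named class. Its share of UMIs was 5.588% and 4.018% in TFC-like cells of the 2 tissue samples, 0.5482% and 0.5705% in endothelial-like and 1.381% and 1.192% in mural-like cells. Stromal-like cells had 0.7925% and 0.8752% and immune-like cells 0.9923% and 0.9034%. The lower TFC-like sample lay above every sample of the other 4 classes. The nuclear set differed less, at 0.7398% and 0.7382% in TFC-like cells, 0.5092% and 0.6211% in endothelial-like and 0.4365% and 0.5016% in mural-like cells. In these means over whole classes, the TFC-like samples were again above those of the other named classes. As medians over cells, TFC-like cells were highest in tissue replicate 1 (0.62%) but not in replicate 2. There they had 0.5737%, below endothelial-like (0.5906%) and immune-like cells (0.5889%). Means of single clusters came closer, with 0.701% and 0.651% in the mural-like cluster led by Rgs5. An immune-like cluster of 3 and 5 cells had 0.683% and 0.836%. The ratio of the mitochondrial to the nuclear set was 6.5 ± 1.49 (SD, n = 2) in TFC-like cells and 0.998 ± 0.112 (SD, n = 2) in endothelial-like cells. The cells set aside from the follicular cluster had mitochondrial shares of 6.067% and 6.919%.

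**Figure D2:**
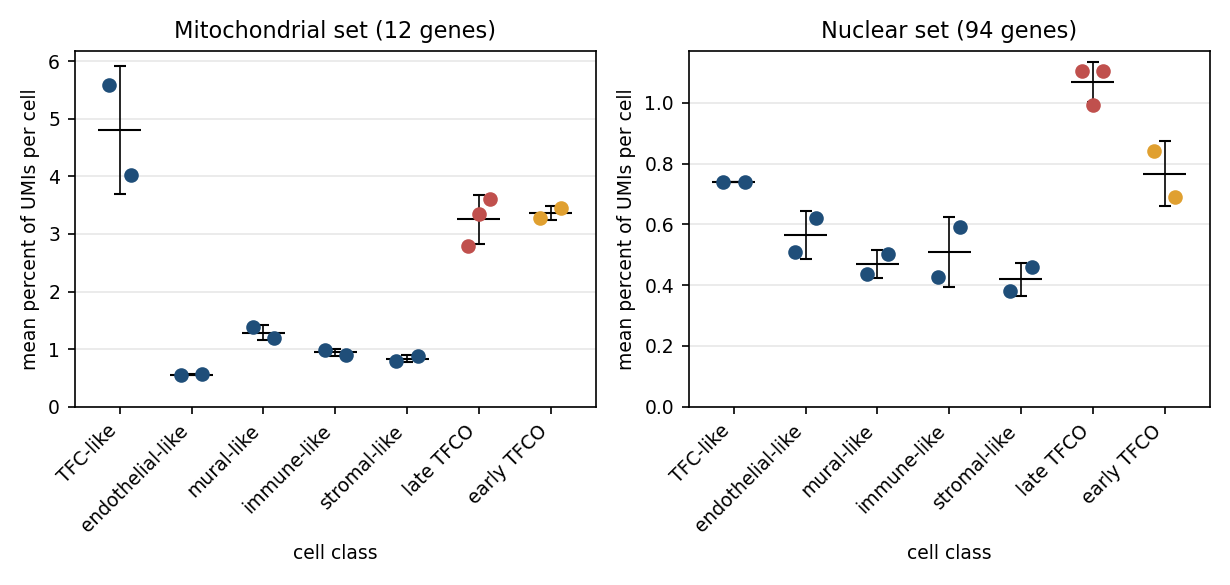
Percent of a cell's UMIs in the mitochondrial and in the nuclear set, by tissue cell class and TFCO group; points are samples, lines means and bars SD. In these means over cells, TFC-like cells stand highest among the named tissue classes in both sets. Late TFCOs stand highest of all in the nuclear set, and the mitochondrial shares of late and early TFCOs overlap.

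Each gene with a mean level of at least 0.5 was tested with limma on log2(level + 1), each class against the mean of the other 4 classes, with p-values adjusted by the Benjamini-Hochberg method over all 4655 genes and a threshold of 0.05. Differences on this scale understate the change of genes with low levels. The filter, a mean over the 5 classes, kept 7 mitochondrial and 44 nuclear members. In 1 and 12 of these, one side of the comparison of TFC-like cells with the others was itself under 0.5.

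In TFC-like cells all 7 tested mitochondrial members were higher, where 6.17% of all tested genes were called higher and 15.7% lower. Their median log2 difference was 2.35, against -0.211 over all tested genes. The message of mt-Cytb stood at 154.4 and 106.2 UMIs per 10000 in TFC-like cells, at 37.67 and 37.61 in mural-like, 11.3 and 13.51 in endothelial-like, 19.56 and 32.26 in stromal-like and 21.92 and 23.06 in immune-like cells. The 2 TFC-like values lay above all others, with a log2 difference of 2.44 (SE 0.199, limma adjusted p = 3.65e-06). The message of mt-Nd4 stood at 158.2 and 110.4 in TFC-like and at 16.04 and 16.67 in endothelial-like cells (log2 difference of TFC-like from the other classes 2.35, SE 0.16, adjusted p = 9.94e-07). The catalytic subunit mt-Co1, whose end is shared with other annotated genes, stood at 48.33 and 27.74 in TFC-like cells and between 2.884 and 11.68 in the others (2.48, SE 0.209, limma adjusted p = 4.62e-06). The differences of mt-Nd5, mt-Nd2 and mt-Nd1 were 2.62, 2.28 and 2.24, so the rows of complexes I, III and IV differed by like amounts. The smallest, mt-Atp8, stood at 2.912 and 2.664 against 0 to 0.7935 in the other classes (1.46, SE 0.187, adjusted p = 0.000234; adjusted p = 0.0155 without the filter, which it passed through TFC-like cells). The minus-strand gene mt-Nd6 was under the filter and stood at 0.797 and 0.9528 in TFC-like cells and at 0 to 0.3691 elsewhere (0.73, adjusted p = 0.0856 without a filter).

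**Figure D3:**
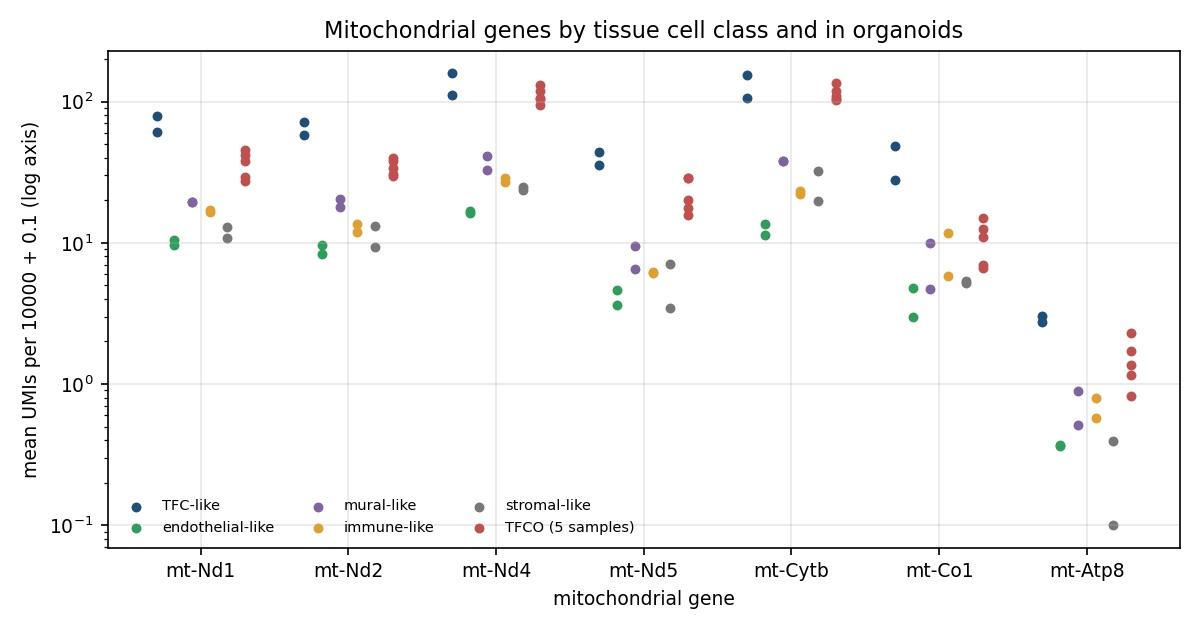
Level of each tested mitochondrial gene (UMIs per 10000, plus 0.1, log axis) in the 5 tissue classes and in the 5 TFCO samples. Each point is 1 sample. TFC-like points lie above those of the other tissue classes for all 7 tested genes, and endothelial-like points are the lowest for mt-Cytb. TFCO points overlap with the TFC-like ones for mt-Cytb and mt-Nd4.

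Of the 44 nuclear members tested, 7 (15.9%) were higher in TFC-like cells and 0 lower, 16 had an unadjusted p under 0.05, and the median difference was 0.23. These 7 came from complex I, complex IV and the ATP synthase. The largest difference was that of Ndufa1, a small X-linked subunit needed to assemble complex I, which stood at 2.282 and 2.915 in TFC-like cells and at 0 to 0.8315 in the other classes (log2 difference 1.45, SE 0.18, limma adjusted p = 0.000175). The complex IV subunit Cox6c stood at 4.276 and 3.008 against 0.7658 to 1.756 elsewhere (1.11, SE 0.205, adjusted p = 0.00294). For both genes the TFC-like samples did not overlap with any other. Ndufa1, with a mean of 0.3397 over the other classes, passed the filter through TFC-like cells, and its adjusted p was 0.013 without a filter; that of Cox6c was 0.0567.

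The other 5 were nearer the threshold, and none of them passed without a filter. Ndufc2, of the membrane arm of complex I, differed by 0.80 (adjusted p = 0.0193), Ndufa4 by 0.74 (adjusted p = 0.0178), Atp5d, of the stalk of the ATP synthase, by 0.70 (adjusted p = 0.0233), Cox7a2, which passed the filter through TFC-like cells, by 0.70 (adjusted p = 0.0164) and Cox8a by 0.56 (adjusted p = 0.0491). By complex, 3 of 15 complex I subunits, 3 of 10 complex IV members, 1 of 12 ATP synthase members, 0 of 5 complex III members and 0 of 1 complex II members were higher. Ndufa4 is 1 of the 3 counted with complex I, by its name. The level of Cox8a followed the well barcode in the TFCOs, with a correlation of 0.0569 between cells of the same barcode.

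Genes outside the members followed the mitochondrial rows in part. The mitochondrial ribosomal RNAs mt-Rnr1 and mt-Rnr2 were higher in TFC-like cells by 1.97 and 2.18 on the log2 scale, and the tRNA row mt-Td by 2.34, so 3 of 3 tested RNA rows rose with the messages. Of 7 tested genes of the citric acid cycle and pyruvate entry 1 was higher, the malate dehydrogenase Mdh2 by 0.75. Of 8 carriers and channels 1 was higher, the outer membrane channel Vdac1 by 0.61. Cytochrome c itself, Cycs, was higher by 0.49 (limma adjusted p = 0.0494). Among 7 genes of protein import and membrane folding, Chchd10 was higher by 2.06 (adjusted p = 7.24e-06) and Chchd3 lower, at -0.77. Of 4 tested regulators of mitochondrial gene expression and of 1 tested assembly factor, 0 were called by limma (0 and 1 at an unadjusted p under 0.05).

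TFC-like cells were also the shallowest class, with a median of 2222 UMIs against 3789 in endothelial-like and 6273 in immune-like cells. Within bands of depth the mitochondrial share of TFC-like cells was 4.53% at 1000 to 2000 UMIs (42 cells), 7.26% at 2000 to 3000 (17 cells), 3.87% at 3000 to 6000 (24 cells) and 3.03% from 6000 UMIs (7 cells). Endothelial-like cells had 0.541% to 0.617% in the same 4 bands, so the difference from that class was present at each depth. Mural-like cells had 3.27%, 1.52%, 0.911% and 0.566%. At 1000 to 2000 UMIs the mural-like samples (2.16% and 3.82%) overlapped with the TFC-like ones (3.51% and 6.18%). The nuclear share of TFC-like cells was 0.53%, 0.797%, 0.907% and 1.28% in these bands, lowest in the shallowest cells. At 1000 to 2000 UMIs it lay below endothelial-like cells, at 0.645% (9 cells), and mural-like cells, at 0.548% (18 cells). In the deeper bands it lay above both classes. The thyroglobulin message Tg took 13.3% ± 3.07 (SD, n = 2) of the UMIs of TFC-like cells, and with its UMIs left out of the total 25 rather than 14 members were called higher.

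Endothelial-like cells were the opposite pole of the mitochondrial set. Here 6 of 7 mitochondrial members were lower, where 5.46% of tested genes were called lower, 11.2% higher and 16.7% in all. In the same cells 0 of 44 nuclear members were called by limma in either direction (2 at an unadjusted p under 0.05). The differences were -1.65 for mt-Cytb, -1.33 for mt-Nd4, -1.27 for mt-Co1, -1.14 for mt-Nd5, -1.13 for mt-Nd2 and -1.11 for mt-Nd1. The nuclear median of 0.0643 was near that of all genes, 0.00504. The mitochondrial share of this class was the lowest of the 5 in both samples.

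Stromal-like cells, with 15 and 7 cells, had 11 members lower and 0 higher, where 9.26% of tested genes were called lower and 9.6% higher, 18.9% in all. These were 6 mitochondrial members, at -0.66 for mt-Nd4 to -0.85 for mt-Nd1, and the nuclear genes Cox5a (-0.84), Atp5j2 (-0.76), Atp5b (-0.73), Ndufa1 (-0.72) and Atp5o (-0.59). The mean of the other classes included the high TFC-like cells. The mitochondrial shares of stromal-like cells, 0.7925% and 0.8752%, lay above the endothelial-like 0.5482% and 0.5705%. Atp5b encodes the catalytic β subunit of the ATP synthase and stood at 0.7811 and 1.21 in stromal-like cells, below all other samples at 1.652 to 2.869. The gene Cox5a, whose end is largely shared with other genes, was listed at 0 in both stromal-like samples, over 22 cells in all. When cells were classed by marker score in place of clusters, 5 members were called in this class, all nuclear; 0 of 7 mitochondrial members were, their median moved from -0.774 to -0.137 and the difference of mt-Nd4 turned to 0.022. Without a filter 0 mitochondrial members and 1 nuclear member were called. The level of Atp5o followed the well barcode in TFCOs (correlation 0.2) and its difference turned to 0.11 under the marker score.

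Immune-like cells had Cox7a2l, counted here with complex IV, at 1.896 and 1.722, above all other samples at 0.5149 to 1.422 (log2 difference 0.58, limma adjusted p = 0.0317). They were lower for mt-Cytb (-0.63, limma adjusted p = 0.035) and mt-Nd2 (-0.54, limma adjusted p = 0.0366). The mean they were set against included the high TFC-like cells. Immune-like levels of mt-Cytb, 21.92 and 23.06, lay above the endothelial-like 11.3 and 13.51. These 3 calls of 51 members stood against 24.5% of all tested genes called (12.7% higher and 11.8% lower), and 0 were made with a pseudocount of 0.1 or with sums over cells.

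Mural-like cells, the contractile cells and pericytes around vessels, differed in the forms of complex IV subunits that they held. Ndufa4, a subunit now assigned to complex IV, stood at 0.06828 and 0.1241 in mural-like cells, at 1.368 and 1.066 in endothelial-like, 1.801 and 1.945 in TFC-like, 1.091 and 1.874 in stromal-like and 0.3182 and 0.6619 in immune-like cells. The mural-like samples were the lowest (log2 difference -0.9997, SE 0.191, limma adjusted p = 0.00378). Ndufa1 was also lower there, at -0.60 (adjusted p = 0.0427). These were 2 of 51 members, both lower, where 6.27% of all tested genes were called lower and 7.65% higher, 13.9% in all. The mean that Ndufa1 was set against included the high TFC-like cells. In a fit without a filter, Ndufa4 was the only nuclear member called lower in this class.

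Its paralogue Ndufa4l2, known as a hypoxia-induced gene, ran the other way. Of its 109 UMIs in kept cells 83 lay in mural-like cells, 2 in endothelial-like and 2 in TFC-like cells. Its level was 1.6 and 2.02 in mural-like, 0 and 0.0589 in endothelial-like cells and at most 0.722 in any other named class, the last from 1 UMI. Cox4i2, the tissue-restricted form of complex IV subunit 4, had 47 of its 74 UMIs in mural-like cells, at levels of 1.17 and 1.36, and 1 UMI in endothelial-like cells. Both genes were too low over the classes to pass the filter. In a limma fit of all genes without a filter, the mural-like difference was 1.34 for Ndufa4l2 (SE 0.126, adjusted p = 0.0117), 1.09 for Cox4i2 (SE 0.142, adjusted p = 0.0247) and -0.9997 for Ndufa4 (SE 0.148, adjusted p = 0.033).

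The 2 clusters that made up this class held unlike levels of these forms. In the cluster led by Rgs5, Kcnj8 and Notch3 (27 cells in each sample) Ndufa4l2 stood at 3.34 and 3.14 and Cox4i2 at 2.29 and 1.75. In the cluster with Acta2 and Myh11 among its leading genes (31 and 20 cells) Ndufa4l2 stood at 0.0899 and 0.504 and Cox4i2 at 0.202 and 0.83. Ndufa4 was low in both, at 0.0289 and 0.216 and at 0.103 and 0. Several predicted genes led the second cluster, and the difference between the clusters was not tested.

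Other tissue-restricted forms were scarce. In kept cells Cox6a2 held 8 UMIs and Cox8b 3, against 5410 for Cox6a1 and 5320 for Cox8a, their widespread forms. Cox7a1 held 59 UMIs and Cox6b2, known from testis, held 360, of which 93.2% and 92.8% lay in TFCOs, where 83.4% of all UMIs and 89.6% of those of Cox6a1 lay. Their differences between TFCOs and tissue did not pass the limma test without a filter (adjusted p = 0.358 and 0.317). Of the genes for the c-ring of the ATP synthase Atp5g3 held 5676 UMIs, Atp5g1 1911 and Atp5g2 471. The ATP synthase inhibitor Atpif1 stood at 1.119 and 1.699 in TFC-like cells, 1.508, 1.038 and 1.218 in late TFCOs and 1.157 and 0.7241 in early ones, with overlapping groups.

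The second comparison asked how TFCO cells differ from TFC-like cells of the tissue. TFCOs had a mitochondrial share of 2.793%, 3.355% and 3.613% in late and 3.278% and 3.45% in early samples, below both tissue values of 5.588% and 4.018%. Their nuclear shares were 1.106%, 0.9936% and 1.105% in late and 0.8428% and 0.6905% in early samples, against 0.7398% and 0.7382%, so late samples lay above the tissue and early samples on both sides of it. The tissue cells were shallower, and the order depended on depth. At 1000 to 2000 UMIs the mitochondrial share was 4.53% in tissue, 3.94% in late and 3.52% in early cells, but from 6000 UMIs it was 3.03%, 3.18% and 3.22%. The nuclear share was 0.53%, 1.04% and 0.576% in the first band and 1.28%, 1.05% and 0.87% in the second, which held 7 tissue cells. The lower mitochondrial and higher nuclear shares of TFCOs were thus not seen in the deepest cells. By sample, mitochondrial shares also overlapped at 1000 to 2000 UMIs (tissue 3.51% and 6.18%, late 3.09% to 5.47%). They overlapped too at 3000 to 6000 (3.27% and 4.23%, late 2.9% to 3.5%), but not at 2000 to 3000 (6.78% and 7.94%, late at most 5.94%). As a median over cells, tissue replicate 2 had 2.683%, below every TFCO sample (3.199% to 3.556%) except late replicate 1 (2.626%). The ratio of the mitochondrial to the nuclear set went from 6.5 ± 1.49 (SD, n = 2) in tissue to 3.61 ± 0.914 (SD, n = 5) in TFCOs, as values with no test.

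All 7 samples were fitted together with limma, and TFCO stands for the mean of the late and early groups. Tissue samples received a weight of 0.44 and TFCO samples 1.389. Of 4312 tested genes 19.2% were called higher and 6.12% lower in TFCOs, and the median gene was higher by 0.22, so differences are to be read against that shift. Of 69 tested members 7 were called, 5 higher and 2 lower, where 25.3% of all genes were called.

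The 7 mitochondrial members that passed the filter, a mean over the 3 groups, all lay below 0, with a median of -0.817, and 5 of them did not overlap between TFCO and tissue, where 10.6% of all genes lay lower in TFCOs without overlap. Of these 7, mt-Co1 alone passed the test. All stretches in its last 300 bases (100%) also occur in other annotated genes, so its level is uncertain to that extent. The level was 48.33 and 27.74 UMIs per 10000 in tissue, 6.565, 14.8 and 12.34 in late TFCOs and 10.81 and 6.85 in early ones. The lowest tissue sample was thus above the highest TFCO sample. The difference was -1.83 (95% interval -2.93 to -0.73, SE 0.507, limma adjusted p = 0.0231), or 3.55-fold lower in TFCOs.

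The other tested mitochondrial members did not pass. The levels of mt-Nd1 were 79.39 and 61.06 in tissue and 27.25 to 45.62 in TFCOs (-0.96, adjusted p = 0.152), those of mt-Nd2 71.19 and 57.42 against 29.64 to 39.73 (-0.87, adjusted p = 0.148), and those of mt-Nd5 43.56 and 35.34 against 15.74 to 28.58 (-0.82, adjusted p = 0.221). None of these 3 genes overlapped between tissue and TFCOs. By contrast mt-Cytb stood at 154.4 and 106.2 in tissue and 103.1 to 136.2 in TFCOs (-0.17, adjusted p = 0.798) and mt-Nd4 at 158.2 and 110.4 against 94.31 to 131.3 (-0.25, adjusted p = 0.715), with overlapping samples. The levels of mt-Atp8 were 2.912 and 2.664 in tissue and 0.7232 to 2.181 in TFCOs, again without overlap (-0.67, unadjusted p = 0.0364, limma adjusted p = 0.103). In the TFCOs the levels of mt-Nd2 and mt-Atp8 followed the well barcode, with correlations of 0.0526 and 0.063. Under the filter, mt-Nd6 stood at 0.797 and 0.9528 in tissue and 0.07902 to 0.1866 in TFCOs (-0.73, SE 0.089, adjusted p = 0.0223 in a limma fit without a filter, where mt-Co1 had 0.0994). The differences of mt-Cytb and mt-Nd4 turned to 0.093 and 0.012 without tissue replicate 1.

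The make-up of the mitochondrial set differed accordingly. The row mt-Co1, whose end is shared, was 9.58% and 9.49% of the set in TFC-like cells, 2.66%, 4.56% and 3.68% in late TFCOs and 3.81% and 2.96% in early ones. The row mt-Cytb was 27.3% and 25.7% in TFC-like cells and 31.7% to 37.6% in TFCOs. Neither share overlapped between tissue and TFCOs. In the other 4 tissue classes mt-Co1 was 4.05% to 11.7% of the set, and 1 of these samples, of mural-like cells, lay within the range of the TFCOs.

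**Figure D4:**
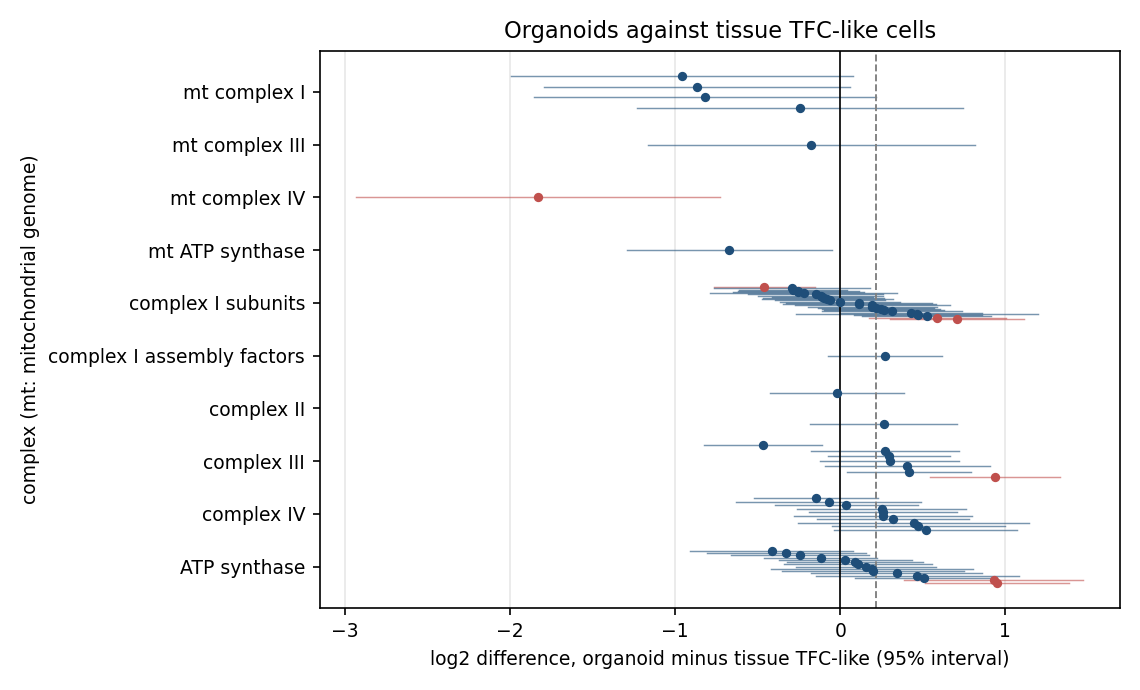
Difference of TFCOs from tissue TFC-like cells (log2 of level + 1) for each tested member, with 95% intervals; red points have a limma adjusted p under 0.05 and the dashed line is the median of all tested genes, 0.22. Most nuclear members lie around the dashed line, all mitochondrial members lie below 0, and mt-Co1 lies lowest.

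Of 62 tested nuclear members 5 (8.06%) were higher and 1 (1.61%) was lower in TFCOs. The balance depended on scale, with 2 higher and 2 lower when samples were centred on the median gene, 3 and 2 with upper quartile scaling, and 15 and 7 without tissue replicate 2. Their median difference of 0.196 was close to the 0.216 of all tested genes, and 16 did not overlap between the groups (12 higher and 4 lower), where 50.4% of all genes did not, 39.8% with TFCOs higher and 10.6% with TFCOs lower. The share of nuclear members called was thus no higher than that of genes at large.

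In 15 of the 62 either tissue or TFCOs stood under the filter of 0.5, so that the gene was tested through the group where it was high; this was so for 4 of the 6 called, Uqcrfs1, Atp5pb, Ndufs1 and Ndufs7. In a limma fit of all genes without a filter Uqcrfs1 (adjusted p = 0.0278) and Atp5pb (adjusted p = 0.0353) were called and the other 4 were not (adjusted p = 0.0681 to 0.0825).

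The 5 higher members came from 3 complexes. Uqcrfs1, the iron-sulfur Rieske protein of complex III, stood at 0.4204 and 0.167 in tissue, 1.514, 1.658 and 1.681 in late TFCOs and 1.484 and 1.169 in early ones (log2 difference 0.94, SE 0.181, limma adjusted p = 0.00539). Atp5pb, of the outer stalk of the ATP synthase, stood at 0.577 and 0.284 in tissue, 2.45, 1.87 and 2.11 in late TFCOs and 1.51 and 1.31 in early ones (0.95, SE 0.199, adjusted p = 0.00737). For both, the lowest TFCO sample was more than 2-fold above the highest tissue sample.

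Atp5c1, the central stalk of the ATP synthase, stood at 0.775 and 1.02 in tissue, 3.48, 2.38 and 3.49 in late TFCOs and 2.41 and 1.97 in early ones (0.93, SE 0.249, adjusted p = 0.0203). Ndufs1, the largest subunit of complex I and a carrier of iron-sulfur clusters, stood at 0.0661 and 0.558 in tissue and at 0.946 to 1.29 in TFCOs (0.71, SE 0.186, adjusted p = 0.0191). Ndufa12, also of complex I, stood at 0.509 and 0.868 in tissue and at 1.30 to 1.90 in TFCOs (0.59, SE 0.19, adjusted p = 0.0407). None of these overlapped between TFCOs and tissue.

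The nuclear member that was lower was Ndufs7, a subunit of complex I that binds its last iron-sulfur cluster, at 0.766 and 0.9 in tissue, 0.472, 0.33 and 0.324 in late TFCOs and 0.341 and 0.246 in early ones (-0.46, SE 0.142, adjusted p = 0.0345). In complex II, Sdha (0.26, adjusted p = 0.354) and Sdhc (-0.02, adjusted p = 0.946) overlapped between the groups. Its other genes, Sdhb at 0.1203 and 0.3411 in tissue and 0.4116 to 0.7119 in TFCOs and Sdhd at 0.3009 and 0.04944 against 0.3728 to 0.5089, were under the filter. Of complex IV, 0 of 10 tested members were called by limma, 0 had an unadjusted p under 0.05 and 0 were free of overlap.

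These calls rest on the 42 and 48 TFC-like cells of the tissue. With cells of at least 3000 UMIs, or with UMIs summed over cells, 0 of the members were called; in tissue replicate 2 a single TFC-like cell held 48.9% of the UMIs of the class, which weighs on the sums. In cells of 1000 to 3000 UMIs alone, chosen after seeing the data, 2 members were called, and mt-Co1 was still one of them.

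Among related genes, the tRNA row mt-Tm was lower in TFCOs. It stood at 1.498 and 1.367 in tissue, 0.02891, 0.05763 and 0.03698 in late TFCOs and 0.03369 and 0.08766 in early ones (-1.21, SE 0.122, limma adjusted p = 0.000143), and it lies directly before mt-Nd2. It passed the filter through tissue alone, and had an adjusted p of 0.0058 without a filter. It was 1 of 4 tested RNA rows to be called. Of 12 citric acid cycle genes 1 was higher, the succinyl-CoA ligase subunit Suclg1 by 0.56 (adjusted p = 0.0716 without a filter), and of 11 carriers and channels 1, the outer membrane channel Vdac2 by 0.79. Of 7 import and membrane folding genes, Chchd10 was lower, at -0.88. Of 5 tested regulators, 2 genes of the cytochrome c list, 1 assembly factor and 1 gene of mitochondrial genome upkeep, 0 were called by limma (1, 0, 0 and 1 at an unadjusted p under 0.05).

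The third comparison asked whether passage changed the genes. Between late and early TFCOs 0 of 69 members passed the test, where 1 of 4312 genes did (0.0232%), and the smallest adjusted p of a member was 0.151. At an unadjusted p under 0.05 there were 25 members, all nuclear. The differences of the nuclear set nevertheless lay to one side: 59 of 62 were above 0, with a median of 0.286, where 50.9% of all genes were above 0 and the median was 0.00597. In 49 of 62 (79%) all 3 late samples lay above both early samples and in 2 they lay below, against 17.9% and 24.7% of all genes. The members share samples and cells, so these counts are a description with no test.

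The shift was spread over the complexes. The median difference was 0.218 in complex I subunits, 0.266 in complex II, 0.327 in complex III, 0.358 in complex IV and 0.269 in the ATP synthase. Ndufa1 stood at 3.382, 2.104 and 3.082 in late TFCOs and at 1.495 and 1.454 in early ones (0.62, SE 0.177, limma adjusted p = 0.151). Cox7c, one of the genes with a shared end, stood at 3.395, 2.571 and 2.6 against 1.884 and 1.464 (0.53, adjusted p = 0.151), Cox7a2l at 2.187, 2.016 and 2.525 against 1.491 and 1.258 (0.45, adjusted p = 0.151) and the c-ring gene Atp5g1 at 1.123, 1.429 and 1.267 against 0.797 and 0.5916 (0.42, adjusted p = 0.151). In each of these 4 genes the late samples were above the early ones without overlap.

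A few nuclear members lay the other way. Atp5o stood at 0.5493, 0.5597 and 0.686 in late TFCOs and 0.8373 and 1.498 in early ones (-0.42, adjusted p = 0.165), and the assembly factor Ndufaf2 at 0.5202, 0.7464 and 0.5267 against 0.9062 and 1.075 (-0.32, adjusted p = 0.159). Both are among the 7 members whose level followed the well barcode, with correlations of 0.2 and 0.0955. The third was Ndufs1, at -0.02.

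The mitochondrial set showed no such shift. Its 7 tested members lay between -0.36 and 0.28, 3 above and 4 below 0, and in all 7 the late and early samples overlapped. Late TFCOs had a mitochondrial share of 3.25% ± 0.419 (SD, n = 3), early TFCOs one of 3.36% ± 0.122 (SD, n = 2). The nuclear shares were 1.07% ± 0.0646 (late, SD, n = 3) and 0.767% ± 0.108 (early, SD, n = 2). Of the related lists, the citric acid cycle had a median of 0.114, carriers and channels 0.153 and the regulators of mitochondrial gene expression -0.169, with 0 genes called in each by limma and 2, 1 and 2 at an unadjusted p under 0.05.

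**Figure D5:**
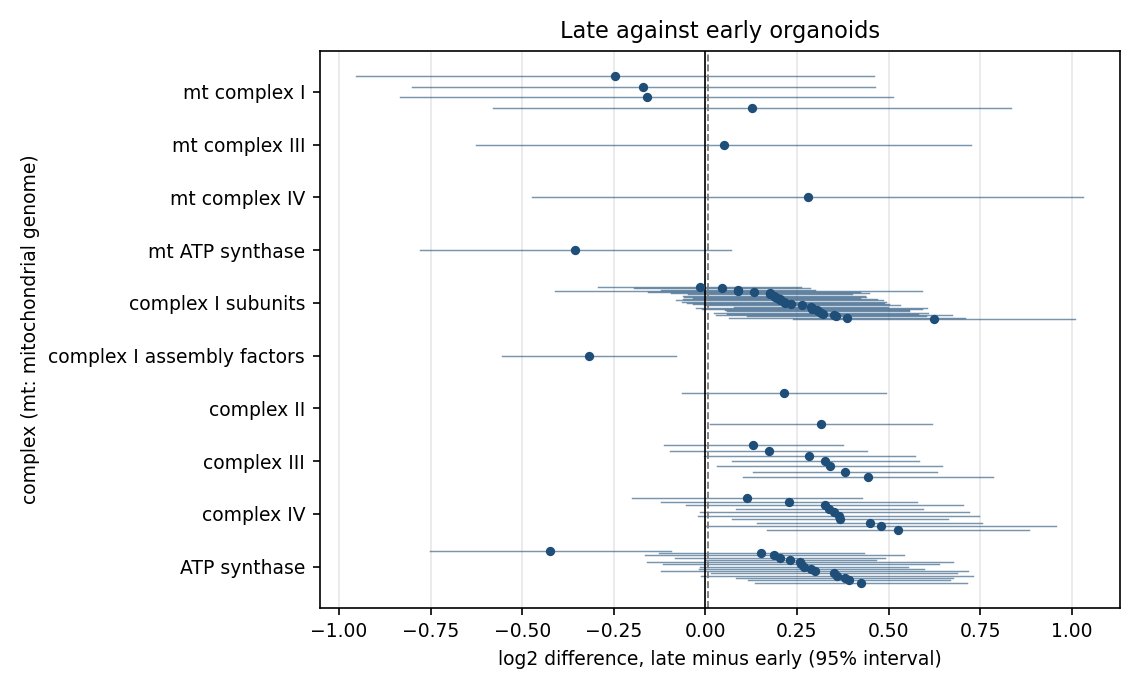
Difference of late from early TFCOs (log2 of level + 1) for each tested member, with 95% intervals; no point passes the limma test and the dashed line is the median of all tested genes. Nearly all nuclear members lie to the right of 0, 59 of 62, while mitochondrial members lie on both sides.

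Depth and proliferation moved with these values. The nuclear share rose with depth in early TFCOs, from 0.576% at 1000 to 2000 UMIs to 0.87% from 6000 UMIs, but not in late TFCOs, which had 1.04% and 1.05% in the same bands, so late samples were above early ones in both. Cells with at least 3 of 10 proliferation markers were 5.537%, 30.56% and 15.7% of late and 37.02% and 8.307% of early TFCO cells, an order that does not separate the groups. In each of the 5 samples these cells had a higher nuclear share than the rest (1.24% against 1.1%, 1.02% against 0.983% and 1.23% against 1.08% in late, 0.886% against 0.817% and 0.851% against 0.676% in early) and a lower mitochondrial share. They were also deeper in each sample, by medians of 10567 to 18668 against 4498 to 11556 UMIs. Among cells of at least 5000 UMIs the nuclear share of proliferating cells was still the higher in each sample, by less in early TFCOs (0.892% against 0.864% and 0.886% against 0.841%). The mitochondrial share was then lower in 4 of the 5 samples and about equal in late replicate 1, at 2.63% against 2.61%.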

How the data were processed

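As deposited by the authors, values for 30879 genes in 2590 cells were the natural log of 1 plus UMIs per 10000 of the cell; the submitters' processing notes name Trim Galore 0.4.3, STAR 2.5.3a, Seurat, GRCm38 and mm10, and a barcode list came with it. The log was undone, and division by each cell's smallest value gave whole UMIs for 100% of values within 0.01. Columns were mapped to samples by name, and 0 belonged to other samples. Total depth was 1406925 to 4703472 UMIs a sample. Cells under 1000 UMIs (555) were left out.

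Members, lists and rules were chosen with earlier results of these data known. Genes correlated above 0.05 between TFCO cells of the same barcode (4272 of 19498, over 2238 pairs of cells) were kept out of clustering, as were all members and other mitochondrial rows. Clustering used scanpy 1.11.5 (2000 variable genes, 30 components, 15 neighbours, Leiden at resolution 1), and classes were named from marker lists. No doublet caller was run; each well received 1 sorted cell by design. Per-sample means of at least 0.5 were tested with limma 3.58.1 in R 4.3.3 on log2(mean + 1), trended, Benjamini-Hochberg adjusted; organoid and tissue samples got 1 estimated weight each, and the class fit had the tissue sample as a term. Named genes were all mitochondrial members, up to 10 nuclear members a direction past the threshold, isoform families, Sdh genes and up to 3 genes a list past the threshold; others, such as the largest late against early differences, were chosen after their values were seen. In simulated data with 200 changed genes the organoid against tissue fit found 28% of 2-fold and 87% of 4-fold changes, the late against early fit 42% and 84%, and the endothelial-like fit 3% and 60%. Simulated counts were drawn per sample at the summed depth of its cells, whereas the real values are means over cells of unequal depth. These percentages may therefore overstate what the real fits find. Alternatives changed pseudocount, filter, scale, weights, depth, clusters and samples.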

Additional observations from a re-analysis of the deposited data

How the results depend on the processing

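For TFCOs against tissue, 7 members were called, against 3 without a filter, 4 with a mean of at least 2, 0 with sums over cells, 16 with equal weights, 3 and 0 in cells of at least 2000 and 3000 UMIs, 2 in cells of 1000 to 3000 UMIs (added after seeing the data), and 5 to 24 with 1 sample left out; over all genes, calls ranged from 144 (sums) to 1874 (without tissue replicate 2) against 1090, and the share of calls that were higher fell from 75.8% to 45.4% when samples were centred on the median gene, 61.8% without Tg and 52.8% with sums. The differences of mt-Cytb and mt-Nd4 turned to 0.20 and 0.12 in cells of at least 3000 UMIs and to 0.093 and 0.012 without tissue replicate 1 (with 1 sample left out, -0.44 to 0.093 and -0.50 to 0.012). The mitochondrial median stayed below 0 in all 23 settings (-1.06 to -0.458), and the nuclear one ran from -0.00713 to 0.394. For late against early, 0 members became 2 without early replicate 1 (range 0 to 2 with 1 sample left out), where 33 genes were called higher and 317 lower in all, against 1, and the nuclear median was 0.177 to 0.485. Replicate numbers share only a number (correlations of -0.0279 and 0.0677 between same-numbered tissue and late samples); with a replicate block 8 members were called for TFCOs against tissue and 0 for late against early, so it changed no call by over 1.5 times.

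For TFC-like cells 14 calls became 8 without a filter, 7 with a mean of at least 2, 30 with sums, 25 without Tg, 32 in cells of at least 2000 UMIs and 8 in cells of 1000 to 3000. Mural-like calls (2) became 1 with a pseudocount of 0.1, 0 with a mean of at least 2, 8 with sums, 17 in cells of at least 2000 UMIs, 4 at 1000 to 3000 UMIs, 7 at resolution 0.5 and 1 at resolution 2. Immune-like calls (3) became 0 with a pseudocount of 0.1, without a filter and with sums, 11 in cells of at least 2000 UMIs and 12 at resolution 0.5. Stromal-like calls (11) became 1 without a filter, 6 with a mean of at least 2 and 5 by marker score, where Atp5o and mt-Nd4 turned to 0.11 and 0.022. At resolution 0.5 no cluster was named stromal-like and 164 cells stayed unnamed, with 56 rather than 105 mural-like cells. Stromal-like cells were too few for a value in both depth bands, as were immune-like cells at 1000 to 3000 UMIs.

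The mitochondrial share of TFC-like cells was 3.617% as a median over cells and 3.66% in cells of at least 3000 UMIs; the nuclear share was 0.5968% as a median, 0.9255% and 0.9948% in cells of at least 2000 and 3000, 0.6125% at 1000 to 3000, 0.9697% with sums, 0.8537% without Tg and 0.8127% of non-mitochondrial UMIs. At 1000 to 3000 UMIs, late TFCOs had 4.332% mitochondrial and early TFCOs 3.62% mitochondrial and 0.6365% nuclear; early TFCOs had 3.239% mitochondrial with sums, and late TFCOs 0.9908% nuclear with every cell. Where not stated, the cause of a change was not tested. Among single genes 539 values kept direction and side of the threshold, 77 lost a call, 7 gained one and 6 turned.

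With 2 tissue samples, weighted 0.44 in the main fit, a 2-fold change in TFC-like cells was seldom found in the simulated data. A lone sample left in a group is assumed to vary like the others. Spike-in scaling was not run. Nuclear members at under 0.5 UMIs per 10000 were not tested, and mt-Co2, mt-Co3, mt-Atp6 and mt-Nd3 cannot be read from these counts.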

Other observations

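Ribosomal protein genes, a list added after the data were seen, shared the direction of the nuclear members between late and early TFCOs. All 71 tested rows for cytosolic ribosomal proteins were above 0, with a median of 0.578, and in 68 (95.8%) all late samples lay above both early ones; 0 passed the limma threshold and 64 had an unadjusted p under 0.05. The 6 tested rows for mitochondrial ribosomal proteins had a median of 0.213. The nuclear members, with a median of 0.286, lay between the ribosomal proteins of the cytosol and the median gene.

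The cells led by haemoglobin genes had mitochondrial shares of 0.7411% and 1.101% and a nuclear share of 0.224% ± 0.0395 (SD, n = 2), a mean below that of any named class. In mural-like cells the mitochondrial share was 3.27% in the 18 cells of 1000 to 2000 UMIs and 0.566% in the 27 cells from 6000 UMIs, a wider range with depth than in endothelial-like cells.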
